A study of Mus musculus with 12 samples.

Results

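The 9 genes described here carry the beta-adrenergic and cyclic AMP signal of fat cells: the receptors Adrb1 and Adrb3, the stimulatory G protein gene Gnas, the phosphodiesterases Pde3b, Pde4b and Pde4d, the protein kinase A subunit Prkar2b, and the transcription factors Crem and Creb5. They were picked by name from 21627 protein-coding genes on chromosomes 1 to 19 and X. For each, the gene on the mouse build GRCm38 and 5 kb on each side were searched in 6 lists of H3K27ac peaks. The question was how acetylation of histone H3 at lysine 27, a mark of active promoters and enhancers, is spread over these genes in Azin2-/- and wild-type cells.

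Noradrenaline binds beta-adrenoceptors on fat cells, which act through the stimulatory G protein on adenylyl cyclase, and the cyclic AMP made there frees the catalytic subunits of protein kinase A. In fat cells the kinase drives lipolysis and, through factors of the CREB family, transcription. Phosphodiesterases break cyclic AMP down, and the compound IBMX, which is part of many adipogenic cocktails, blocks most of them.

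There were 3 Azin2-/- libraries, numbered 1, 2 and 8, and 3 wild-type libraries, numbered 1, 2 and 2b. Both genotypes were progenitors from mouse subcutaneous fat, grown for 1 week and then taken through adipogenic medium, with insulin at 5 µg/ml, IBMX at 0.5 mM, dexamethasone at 1 µM and rosiglitazone at 1 µM for 2 days and insulin alone for 5 days. All cells had thus been without IBMX for 5 days. Azin2 encodes an antizyme inhibitor of polyamine metabolism. The labels call the cells adipocyte progenitors of adipose tissue. They name neither the kind of deletion, the age and sex of the mice, nor whether libraries of a genotype share a culture or how wild-type replicates 2 and 2b relate, so p-values measure only the spread between these libraries, which may be technical.

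Between 742335 and 1217494 peaks were deposited per library, and most were shallow. The 30000 peaks of smallest p in each list were therefore used, and the covered length, the bases of a locus under such peaks, is the measure below unless stated. A deposited q under 0.05 was reached by 54847, 18742 and 13843 peaks in Azin2-/- replicates 1, 2 and 8. In wild-type replicates 1, 2 and 2b it was reached by 21544, 16587 and 15737 peaks. Except in Azin2-/- replicate 1, the 30000 thus include peaks that do not reach that q. The local background at a peak, in fragments, is implied by the deposited fold and p, and its median over all peaks stands in for depth. It was 0.293, 0.462 and 1.02 in Azin2-/- replicates 1, 2 and 8, against 0.164, 0.433 and 0.303 in wild-type replicates 1, 2 and 2b. The total length of the 30000 peaks was 28.9, 22.7 and 21.1 Mb in the Azin2-/- libraries, against 16.9, 21.9 and 28 Mb in the wild-type libraries in the same order. Cover of whole loci was scaled to equal totals before testing, while single regions were tested unscaled, so their values also carry the differences in these totals. The part of depth and of list length in the differences below was not tested beyond the scaling of loci. Of the 10 fat cell markers 9 had cover in some library and 2 in all 6, while Adipoq had none, and their summed cover was 6701 to 11089 bp in Azin2-/- libraries against 4166 to 8913 bp in wild-type libraries. All 10 progenitor markers had cover in some library and 1 in all 6, with sums of 3461 to 8801 bp in Azin2-/- libraries against 7063 to 10837 bp in wild-type libraries. In a bulk library, fewer cells of a type and less of the mark per cell cannot be told apart. These sums were not scaled to equal totals. Unscaled, they overlapped between genotypes for these lists, and also for the immune, endothelial, skeletal muscle and epithelial lists. The progenitor overlap rested on Azin2-/- replicate 1, at 8801 bp the library of longest total, against 7063 bp in wild-type replicate 2. For skeletal muscle it rested on wild-type replicate 2b, at 4506 bp, against 4239 bp in Azin2-/- replicate 8. Their totals were 28 and 21.1 Mb. Whether the sums overlap after scaling was not computed. Skeletal muscle markers, 4 of 5 covered and Myog not, summed to 4239 to 6488 bp in Azin2-/- against 0 to 4506 bp in wild-type. Endothelial markers, 5 of 5 covered, summed to 2500 to 6471 bp in Azin2-/- against 780 to 4575 bp in wild-type. Immune markers, 6 of 7 covered and Cd3e not, summed to 1392 to 2830 bp in Azin2-/- against 801 to 1531 bp in wild-type. Epithelial markers, 4 of 4 covered, summed to 2150 to 3763 bp in Azin2-/- against 1886 to 3308 bp in wild-type. Their part in the results was not tested.

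All 9 loci carried H3K27ac, and no locus differed between the genotypes past the threshold. Of the 9 loci 8 had cover in all 6 libraries, against 31.6% of protein-coding genes, and all 9 reached the mean cover of 500 bp needed for testing. Long genes have more room for peaks, so this share is a description of these loci. By limma, a linear model fitted over 11667 gene loci with Benjamini-Hochberg adjustment, 0 of the 9 were higher and 0 lower in Azin2-/- at an adjusted p under 0.05, where the share over all loci was also 0% in each direction. At an unadjusted p under 0.05 the count was also 0 of 9, while 4.34% of all loci were higher and 2.13% lower. The members' median log2 difference, Azin2-/- minus wild-type, was 0.28, against 0.07 over all loci tested, and 5 of 9 were positive, against 54.6% of all loci. Per length, Adrb1 was the most covered locus, with 14.4% of its window in Azin2-/- and 10.5% in wild-type on average, followed by Gnas with 11.1% and 7.46%. Adrb3 had 5.37% and 4.08%, Crem 1.67% and 2.77%, Pde3b 1.31% and 1.37%, Prkar2b 1.19% and 1.53%, Creb5 0.761% and 0.625%, Pde4b 0.701% and 0.376%, and Pde4d 0.611% and 0.61%.

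**Figure D1:**
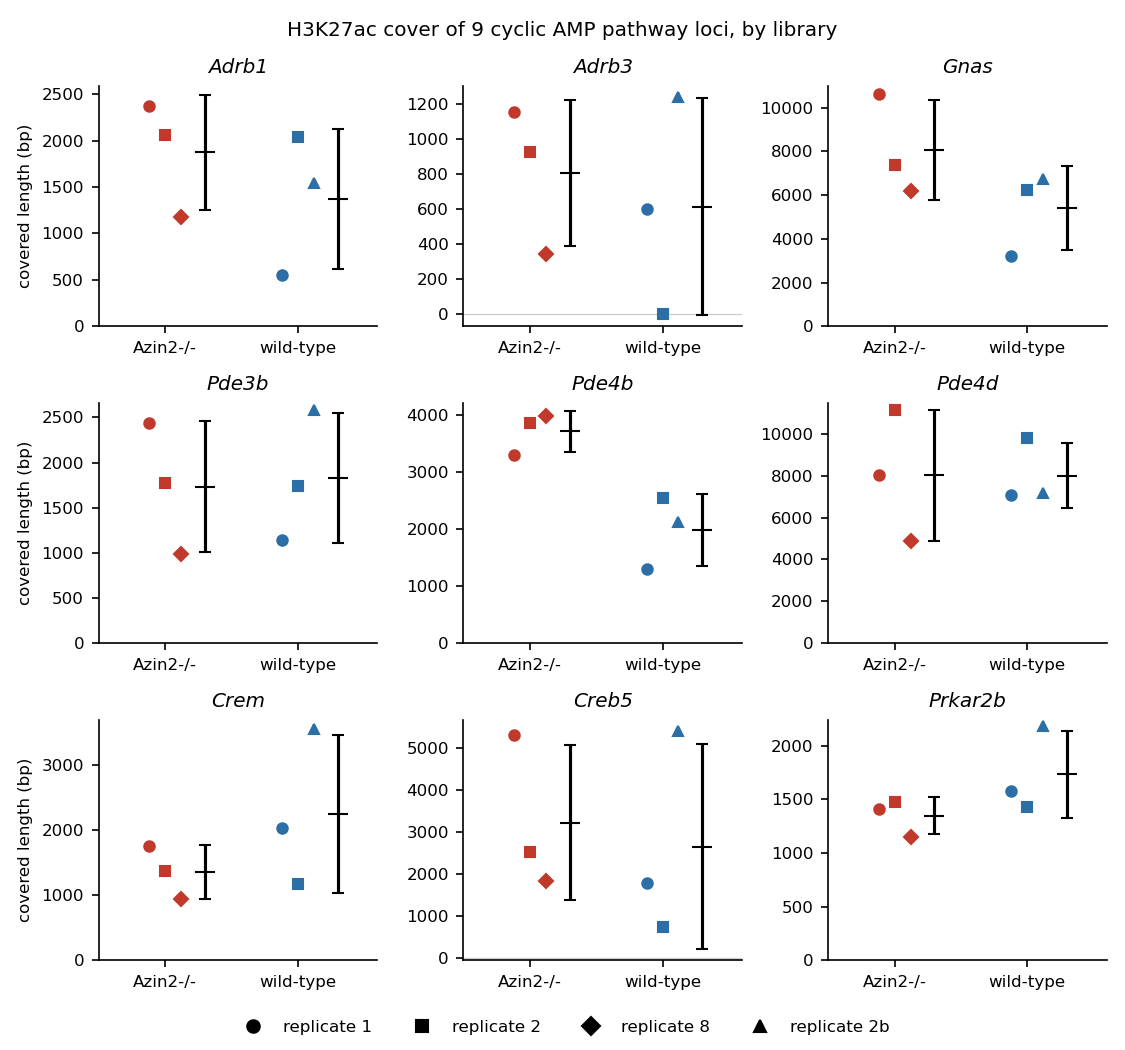
Covered length in bp of the 30000 strongest H3K27ac peaks within each gene and 5 kb on each side. Each symbol is a library (shape gives the replicate), with Azin2-/- in red and wild-type in blue, and the black bar is the mean with its SD (n = 3). At Pde4b the Azin2-/- libraries lie at 3310 to 3977 bp, above the wild-type libraries at 1300 to 2546 bp, before scaling, and at the other loci the genotypes overlap. The share of all loci ordered as at Pde4b before scaling was not counted.

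The genes differed in where their peaks sat. RefSeq lists 14 transcription starts for 6 of the 9 genes, and Adrb3, Pde3b and Crem have no entry in that table. Within 1 kb of a start, 6 of the 14 had a peak in all 6 libraries, against 18.2% of 21044 starts of protein-coding genes. Those 6 were the starts of Adrb1 and Prkar2b and the 3 downstream starts of Gnas. A further 2 of the 14, the most upstream starts of Gnas and Creb5, had a peak in every Azin2-/- and in no wild-type library, against 0.898% of all starts. No start of the 9 genes had the opposite pattern, against 0.0095% of all starts. Of the remaining 6, the starts of Pde4d, the internal start of Creb5 and 2 of Pde4b had no peak in any library, where 42.5% of all starts had none, and the other 2 of Pde4b had a peak in 1 library each. Neighbouring starts of Gnas and of Prkar2b share peaks, so these are not 14 separate observations.

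The promoters of the starts on which this rests are printed here from RefSeq (GRCm38.p6), each from 250 bases before the start to 50 after it, 5′ to 3′ on the gene's strand. Capitals mark the cyclic AMP response element TGACGTCA or its core TGACG on either strand, overlaps included, the letters to which CREB-family proteins bind. The upstream promoters of Creb5 and Gnas are shown because their peaks were listed in Azin2-/- libraries alone, and the others because every library had a peak there.
Creb5, upstream start, chr6:53287053-53287352, plus strand: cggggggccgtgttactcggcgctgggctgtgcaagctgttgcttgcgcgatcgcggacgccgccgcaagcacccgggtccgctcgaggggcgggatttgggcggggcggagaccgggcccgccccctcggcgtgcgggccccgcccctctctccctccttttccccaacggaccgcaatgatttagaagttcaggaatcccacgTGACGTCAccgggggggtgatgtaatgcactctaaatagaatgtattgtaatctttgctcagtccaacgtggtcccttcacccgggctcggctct
Gnas, upstream start, chr2:174284070-174284369, plus strand: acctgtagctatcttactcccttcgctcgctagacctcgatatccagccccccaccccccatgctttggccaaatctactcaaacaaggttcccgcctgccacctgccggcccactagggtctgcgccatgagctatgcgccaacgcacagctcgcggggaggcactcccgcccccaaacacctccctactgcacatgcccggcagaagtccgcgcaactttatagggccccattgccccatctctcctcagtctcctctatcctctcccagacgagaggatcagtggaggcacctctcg
Gnas, second start, chr2:174327499-174327798, plus strand: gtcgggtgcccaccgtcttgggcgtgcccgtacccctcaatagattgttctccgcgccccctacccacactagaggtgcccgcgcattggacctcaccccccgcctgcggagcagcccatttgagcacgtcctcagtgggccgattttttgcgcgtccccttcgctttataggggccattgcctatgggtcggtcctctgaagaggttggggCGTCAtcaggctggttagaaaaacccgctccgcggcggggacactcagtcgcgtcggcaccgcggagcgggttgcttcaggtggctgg
Gnas, most downstream start, chr2:174329756-174330055, plus strand: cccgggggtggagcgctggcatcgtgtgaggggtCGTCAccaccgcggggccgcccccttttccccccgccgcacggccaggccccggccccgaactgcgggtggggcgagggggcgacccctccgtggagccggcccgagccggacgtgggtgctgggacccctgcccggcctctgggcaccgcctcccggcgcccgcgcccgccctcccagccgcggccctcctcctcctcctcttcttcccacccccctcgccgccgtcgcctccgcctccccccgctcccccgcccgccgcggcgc
Adrb1, chr19:56721867-56722166, plus strand: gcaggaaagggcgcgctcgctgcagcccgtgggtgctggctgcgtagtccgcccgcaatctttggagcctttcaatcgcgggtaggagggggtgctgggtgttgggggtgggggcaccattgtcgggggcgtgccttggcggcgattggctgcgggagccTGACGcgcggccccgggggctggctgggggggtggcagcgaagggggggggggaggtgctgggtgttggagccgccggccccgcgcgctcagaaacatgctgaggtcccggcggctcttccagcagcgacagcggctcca
Prkar2b, upstream start, chr12:32061228-32061527, minus strand: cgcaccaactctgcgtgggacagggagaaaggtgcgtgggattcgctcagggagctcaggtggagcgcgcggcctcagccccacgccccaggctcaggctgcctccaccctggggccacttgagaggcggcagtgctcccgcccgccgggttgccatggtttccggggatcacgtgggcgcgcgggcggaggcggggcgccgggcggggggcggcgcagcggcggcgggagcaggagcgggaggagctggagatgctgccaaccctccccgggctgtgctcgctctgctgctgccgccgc
The element TGACGTCA occurred in the upstream promoter of Creb5, beginning 45 bases before the start, and in no other of the 14, while 2.26% of 21044 promoters held it. The core TGACG was found in 6 of the 14, against 23.8% of all. It lay 90 bases before the Adrb1 start, 38 bases before the second start of Gnas and 216 bases before its most downstream start. The site of the second Gnas start is also that of the third, 57 bases before it, so they are not separate sites. The core also lay 34 bases before a Pde4b start that had no peak in any library. The upstream Gnas promoter and both Prkar2b promoters held none. A match of letters is a description of the sequence and does not show binding.

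Adrb1, the beta-1 adrenoceptor, lies on chromosome 19 from 56722117 to 56725150. Its locus held 1 merged region, from 56721237 to 56724299, and this region was present in all 6 libraries, as were 3.23% of all 128486 merged regions. Covered length was 2371, 2064 and 1181 bp in Azin2-/- replicates 1, 2 and 8, against 550, 2033 and 1538 bp in wild-type replicates 1, 2 and 2b. Wild-type replicate 1, the library of lowest background, was the lowest, and the genotypes overlapped. The log2 difference was 0.31 with SE 0.40 (limma adjusted p = 0.897). The summit reached 15, 8 and 12 fragments over a local background of 0.255, 0.445 and 3.59 in Azin2-/-. In wild-type it reached 3, 10 and 9 over 0.13, 0.41 and 0.909. Without wild-type replicate 1 the log2 difference was 0.049.

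Adrb3, the beta-3 adrenoceptor that is typical of rodent fat cells, lies on chromosome 8 from 27225776 to 27230845. No library had a peak within 1 kb of either gene end. Its main region lay inside the gene, from 27226787 to 27228169. The locus had 1155, 928 and 343 bp in Azin2-/- replicates 1, 2 and 8, against 600, 0 and 1243 bp in wild-type replicates 1, 2 and 2b. The 343 bp of Azin2-/- replicate 8 lay outside the gene, beyond its lower-coordinate end, so that the inner region was covered in 2 libraries of each genotype. Wild-type replicate 2 had a deposited peak there, from 27227171 to 27227876 with 4 fragments at its summit, but its rank of 31733 put it just outside the 30000 strongest. The log2 difference was 0.28 with SE 0.61 (limma adjusted p = 0.938), and it was -0.23 without wild-type replicate 2.

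Gnas encodes the alpha subunit of the stimulatory G protein, which couples beta-adrenoceptors to adenylyl cyclase. It is an imprinted locus that also makes other transcripts from upstream starts. The most upstream start gives Nesp, which encodes the neuroendocrine secretory protein NESP55 and is read from the maternal allele in mouse, and the most downstream start gives the G protein subunit itself. Gnas lies on chromosome 2 from 174284320 to 174346744. The H3K27ac mark has no strand, so Nesp cannot be told apart from antisense transcripts that overlap it.

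Over the downstream starts a broad region from 174326632 to 174331584 was covered in all 6 libraries. It had 4739, 3671 and 3032 bp in Azin2-/- replicates 1, 2 and 8, against 3218, 4097 and 3852 bp in wild-type replicates 1, 2 and 2b. The genotypes overlapped, with a log2 difference of 0.018 and SE 0.12 (limma adjusted p = 0.976 over 22379 regions). Leaving out Azin2-/- replicate 1 made it -0.14, and leaving out wild-type replicate 1 made it -0.078. The strongest peak there had 20, 12 and 22 fragments at its summit over a local background of 0.293, 0.445 and 4.93 in Azin2-/-. For wild-type the values were 19, 11 and 29 over 0.314, 0.566 and 2.57. In wild-type replicate 1 this peak ranked 126 of the whole list, the highest rank of any peak at the 9 loci.

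At the upstream start, by contrast, the lists differed. The region from 174284159 to 174285938 had 1240, 1280 and 1477 bp in Azin2-/- replicates 1, 2 and 8, while all wild-type libraries were listed at 0. Deposited peaks of lower rank were present there in all 3 wild-type libraries. The strongest deposited peak within 1 kb of the start had 9, 10 and 8 fragments at its summit over a local background of 0.255, 0.445 and 1.79 in Azin2-/- replicates 1, 2 and 8. In wild-type replicates 1, 2 and 2b it had 2, 2 and 3 fragments over 0.155, 0.41 and 0.454. The Azin2-/- values all lie above the wild-type values, but the start is described for its presence in the Azin2-/- lists alone, so this order largely restates that choice. The test over all regions did not pass (limma unadjusted p = 0.00319, adjusted p = 0.623). At an unadjusted p under 0.05, 4.03% of all regions were higher in Azin2-/- and 0.666% lower. In the 60000 strongest peaks wild-type replicate 2b also had a peak at this start, ranked 57343. The peaks of Azin2-/- replicates 1, 2 and 8 ranked 12666, 2290 and 25271, and that of replicate 8 had a -log10 q of only 1.14. With the 15000 strongest peaks, or at a q of 0.01 or less, Azin2-/- replicate 8 thus had no peak at this start.

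Another region of Gnas lay inside the gene between these starts, from 174298275 to 174301174. It had 2900, 1870 and 1695 bp in Azin2-/- replicates 1, 2 and 8, against 0, 2145 and 1470 bp in wild-type replicates 1, 2 and 2b. Only wild-type replicate 1 had no cover there, and the genotypes overlapped (limma adjusted p = 0.623). Over the whole locus Gnas had 10615, 7397 and 6204 bp in Azin2-/-, against 3218, 6242 and 6754 bp in wild-type. These lengths overlapped between genotypes. After scaling to equal totals, all 3 Azin2-/- libraries were above all 3 wild-type libraries, as at 6.72% of loci tested, whereas 4.93% were lower without overlap. The log2 difference was 0.44 with SE 0.35 (limma adjusted p = 0.826).

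**Figure D2:**
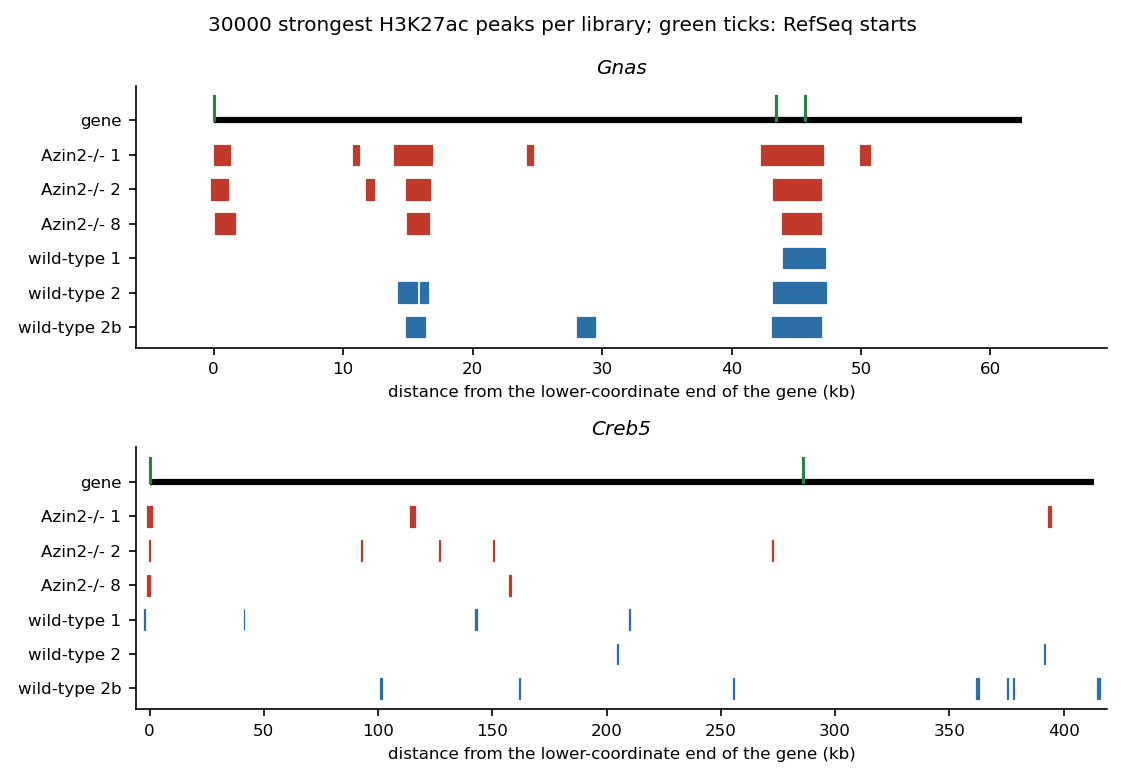
Peaks among the 30000 strongest in each library along Gnas and Creb5, with distance in kb from the lower-coordinate end of the gene on the x axis. The black bar is the gene, green ticks are RefSeq starts (neighbouring ones merge), red bars are Azin2-/- peaks and blue bars wild-type peaks. Peaks at the upstream start are drawn in the 3 Azin2-/- libraries of both genes and in no wild-type library, while the block over the downstream Gnas starts is present in all 6.

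Creb5, a factor of the CREB and ATF group that binds cyclic AMP response elements, lies on chromosome 6 from 53287226 to 53700364. Its upstream start is the promoter printed above with the full element. The region there, from 53286242 to 53288478, had 2237, 651 and 1093 bp in Azin2-/- replicates 1, 2 and 8, while all wild-type libraries were listed at 0. The strongest deposited peak within 1 kb of that start had 15, 13 and 15 fragments over a local background of 0.255, 0.925 and 2.69 in Azin2-/-. In wild-type replicates 1, 2 and 2b it had 2, 6 and 4 fragments over 0.135, 1.22 and 0.606, and these peaks ranked 73929, 44608 and 44376 in their lists. As at Gnas, the order of the fragments largely restates why the start is described. The test over all regions did not pass (limma unadjusted p = 0.00597, adjusted p = 0.623). Wild-type replicate 1 had a peak among its 30000 strongest, with 3 fragments, from 53284832 to 53285160, which is farther than 2 kb from the gene end.

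Elsewhere in Creb5 the peaks were not shared. Of 21 merged regions at the locus 20 were held by 1 library, or 95.2%, against 85.8% of all regions. Over the whole locus Creb5 had 5300, 2527 and 1832 bp in Azin2-/- replicates 1, 2 and 8, against 1786, 752 and 5398 bp in wild-type replicates 1, 2 and 2b. Azin2-/- replicate 1 and wild-type replicate 2b, the libraries with the longest total cover, were the highest, and the genotypes overlapped. The log2 difference was 0.32 with SE 0.49 (limma adjusted p = 0.915), and it was -0.21 when wild-type replicate 2 was left out and 0.76 when wild-type replicate 2b was.

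**Figure D3:**
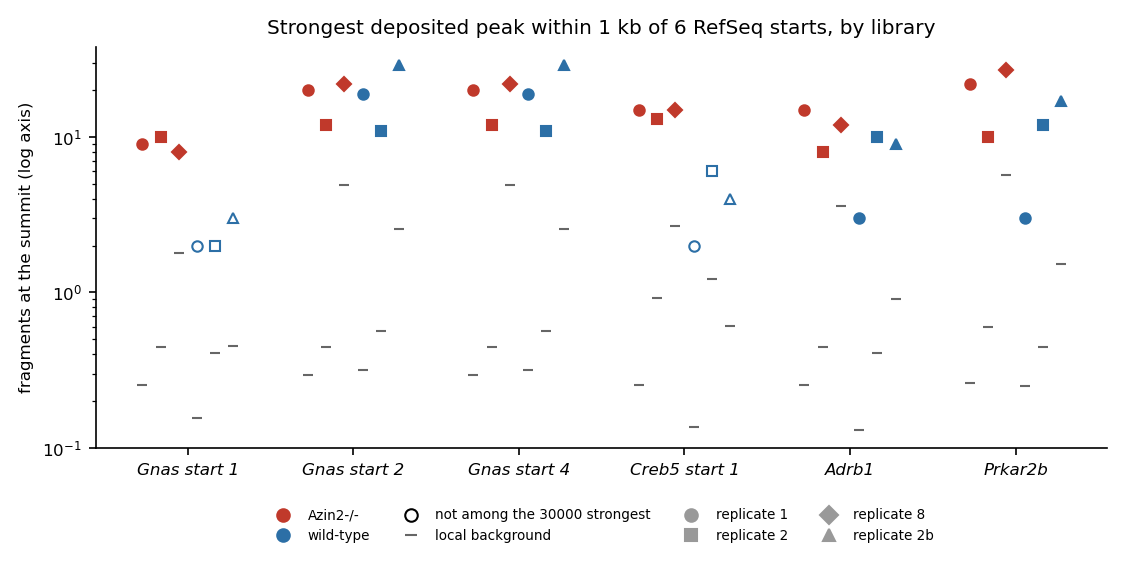
Fragments at the summit of the strongest deposited peak within 1 kb of 6 RefSeq starts, on a log axis, as implied by the deposited fold and p. Red symbols are Azin2-/- and blue symbols wild-type libraries, shape gives the replicate, open symbols are peaks outside the 30000 strongest, and grey dashes are the local background. At the upstream starts of Gnas and Creb5 the Azin2-/- libraries lie at 8 to 15 fragments and the wild-type libraries at 2 to 6, an order that largely follows from how these starts were picked, while at the other 4 starts the genotypes overlap.

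Pde3b encodes the phosphodiesterase through which insulin lowers cyclic AMP in fat cells. It lies on chromosome 7 from 114415222 to 114537938, and its region at the lower-coordinate end, from 114414414 to 114416993, was present in all 6 libraries. The region had 2134, 1004 and 991 bp in Azin2-/- replicates 1, 2 and 8, against 1149, 1745 and 2580 bp in wild-type replicates 1, 2 and 2b. The genotypes overlapped, with a log2 difference of -0.37 and SE 0.38 (limma adjusted p = 0.623). Over the whole locus, Azin2-/- had 2440, 1771 and 991 bp, against 1149, 1745 and 2580 bp for wild-type, a log2 difference of -0.17 with SE 0.35 (limma adjusted p = 0.934) that was 0.025 without Azin2-/- replicate 8. Pde3b was the only member with a gene end held by all 6 libraries both in the 15000 strongest peaks and at a deposited q of 0.01 or less.

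Pde4b and Pde4d encode phosphodiesterases specific for cyclic AMP, and both are very long genes with many starts. Pde4b lies on chromosome 4 from 102087332 to 102607275. It had 3310, 3865 and 3977 bp in Azin2-/- replicates 1, 2 and 8, against 1300, 2546 and 2128 bp in wild-type replicates 1, 2 and 2b. Before scaling every Azin2-/- library was above every wild-type library, and after scaling the genotypes overlapped. The share of all loci with such an order before scaling was not counted. This was the largest log2 difference of the 9 loci, 0.68 with SE 0.34, and it did not pass (limma unadjusted p = 0.0671, adjusted p = 0.775). Leaving out 1 library gave 0.56 to 0.86. The number of peaks was 4, 7 and 6 in Azin2-/- and 3, 5 and 3 in wild-type.

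The Pde4b peaks were spread out and mostly seen in 1 library. Of 25 merged regions 23 were held by 1 library, or 92%, and the region shared most, from 102493992 to 102495431 inside the gene, was held by Azin2-/- replicates 1 and 2 and wild-type replicate 2. At the lower-coordinate gene end Azin2-/- replicates 1 and 8 had peaks with 9 and 6 fragments, Azin2-/- replicate 2 had 3 fragments in a peak outside the 30000 strongest, and the wild-type libraries had at most 1 fragment. Azin2-/- replicate 8 alone had a peak at the higher-coordinate end, with 7 fragments. In all deposited peaks Pde4b averaged 79960 ± 19747 bp in Azin2-/-, against 81631 ± 25743 bp in wild-type (SD, n = 3 per genotype).

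Pde4d lies on chromosome 13 from 108654177 to 109955969. Its listed start had no peak among the 30000 strongest in any library. Its 2 shared regions lay near the higher-coordinate end and were present in all 6 libraries. The region from 109902014 to 109904279 had 2169, 1526 and 1004 bp in Azin2-/- replicates 1, 2 and 8, against 1104, 1446 and 1069 bp in wild-type replicates 1, 2 and 2b. The genotypes overlapped there (log2 difference 0.28, SE 0.39; limma adjusted p = 0.703). The peak reached 24, 12 and 22 fragments over a local background of 0.318, 0.452 and 6.73 in Azin2-/-. In wild-type it reached 5, 15 and 35 over 0.155, 0.48 and 1.36.

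The other shared region of Pde4d, from 109934954 to 109936228, was narrow, with 444, 681 and 469 bp in Azin2-/-, against 483, 440 and 1068 bp in wild-type. Wild-type replicate 2b and Azin2-/- replicate 2 had the widest peaks, and the genotypes overlapped (log2 difference -0.18, SE 0.76; limma adjusted p = 0.949). The difference was 0.13 without wild-type replicate 2b. Of 51 regions at Pde4d, 45 were held by 1 library, or 88.2%. The whole locus had 8014, 11141 and 4875 bp in Azin2-/-, against 7056, 9794 and 7150 bp in wild-type, with a log2 difference of -0.19 and SE 0.43 (limma adjusted p = 0.94), or 0.024 without Azin2-/- replicate 8.

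**Figure D4:**
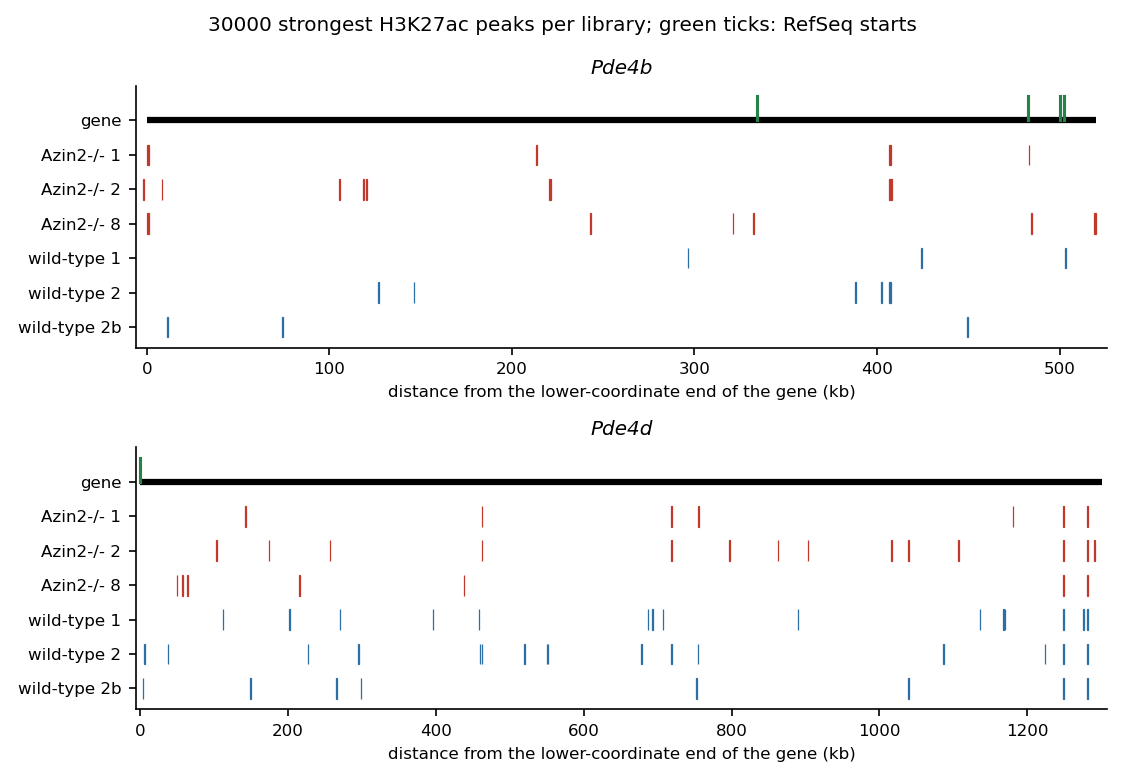
Peaks among the 30000 strongest in each library along Pde4b and Pde4d, with distance in kb from the lower-coordinate end of the gene on the x axis. The black bar is the gene, green ticks are RefSeq starts, red bars are Azin2-/- peaks and blue bars wild-type peaks. Most peaks have no counterpart in another library, and the 2 regions near the higher-coordinate end of Pde4d recur in all 6.

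Prkar2b encodes the RII-beta regulatory subunit that holds protein kinase A inactive and is abundant in fat. It lies on chromosome 12 from 31958450 to 32061648. A region over both of its starts, from 32059386 to 32061845, was present in all 6 libraries and had 1409, 926 and 1151 bp in Azin2-/- replicates 1, 2 and 8, against 1580, 1065 and 2187 bp in wild-type replicates 1, 2 and 2b. The genotypes overlapped, with a log2 difference of -0.38 and SE 0.39 (limma adjusted p = 0.623). The summit had 22, 10 and 27 fragments over a local background of 0.259, 0.601 and 5.74 in Azin2-/-. In wild-type it had 3, 12 and 17 over 0.251, 0.443 and 1.51, where wild-type replicate 1 was the lowest. For the whole locus the log2 difference was -0.37 with SE 0.34 (limma adjusted p = 0.849).

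Crem encodes a modulator of cyclic AMP responses whose internal promoter gives the inducible repressor ICER. It lies on chromosome 18 from 3266354 to 3337773. The locus had 1762, 1366 and 942 bp in Azin2-/- replicates 1, 2 and 8, against 2029, 1169 and 3558 bp in wild-type replicates 1, 2 and 2b. Wild-type replicate 2b was the highest and the genotypes overlapped (log2 difference -0.61, SE 0.38; limma adjusted p = 0.794). Leaving out 1 library gave -0.93 to -0.43.

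Most of the Crem cover sat at the higher-coordinate end, in a region from 3336016 to 3338185 with 1127, 0 and 942 bp in Azin2-/-, against 1417, 1169 and 2098 bp in wild-type. Every Azin2-/- library was below every wild-type library in that region, before any scaling, and it did not pass the test (limma unadjusted p = 0.0701, adjusted p = 0.623). The share of all regions with such an order was not counted. The summit had 12, 4 and 24 fragments over a local background of 0.391, 0.542 and 7.18 in Azin2-/-, against 5, 10 and 45 over 0.377, 0.493 and 2.5 in wild-type. The peak of Azin2-/- replicate 2 ranked 47546 and so lay outside the 30000 strongest.

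Counted at gene ends with 1 kb on each side, Adrb1, Pde3b and Prkar2b had a peak in all 6 libraries, which is 3 of 9 against 18% of 21627 genes. Gnas and Creb5, 2 of 9, had one in all Azin2-/- and no wild-type libraries, against 0.851% of genes. None of the 9 had the opposite pattern, against 0.0601% of genes. Of the 119 merged regions at the 9 loci, 2 were present in every Azin2-/- library while absent from wild-type lists, as were 0.412% of all regions, and 0 the other way round, against 0.0257%. Both counts at gene ends depended on the length of the list. The first count was 1 in the 15000 strongest peaks and 6 in all deposited peaks, and the second was 1 (Creb5, without Gnas) and 0. With ends of 2 kb Creb5 left the second count, through a peak of wild-type replicate 2b beyond the higher-coordinate end, from 53701703 to 53702948, and Pde4b entered it.

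Among 95 other genes of the pathway, 94 were found in the gene table and 78 reached the minimum cover. By limma, 0 of the 78 were higher and 0 lower in Azin2-/- at an adjusted p under 0.05. At an unadjusted p under 0.05, 5 were higher and 0 lower, against 4.34% and 2.13% of all loci. The median log2 difference was 0.09, against 0.07 over all loci, and 46 of 78 were positive. The groups did not overlap at 6 loci that were higher, or 7.69%, and at 5 that were lower, or 6.41%, against 6.72% and 4.93% of all loci. These shares are near those of all genes. Of 10 adenylyl cyclases, the enzymes that make cyclic AMP, 7 had cover in every library, and of 13 other phosphodiesterases 9 did. Among receptors, 1 of 11 other Gs-coupled receptors had cover in every library. Ucp1, the uncoupling protein of brown fat that cyclic AMP induces, and the receptor genes Gcgr, Mc2r and Hcar1 had no cover in any library. In all deposited peaks Mc2r and Hcar1 had cover and Gcgr still had none, and the reason was not tested.

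The 4 other loci of smallest p among those higher in Azin2-/- were Lipe, Adora1, Fosb and Adora2a. Lipe encodes hormone-sensitive lipase, a target of protein kinase A, and had 2084, 1944 and 1169 bp in Azin2-/- replicates 1, 2 and 8, against 0, 262 and 0 bp in wild-type replicates 1, 2 and 2b (log2 difference 1.88, SE 0.52; limma unadjusted p = 0.00435, adjusted p = 0.743). Every Azin2-/- library was above every wild-type library there. Adora1, the Gi-coupled adenosine receptor that restrains lipolysis, had 2003, 2410 and 1172 bp in Azin2-/- against 453, 0 and 0 bp in wild-type (limma adjusted p = 0.743), also without overlap. Fosb, an AP-1 gene, had 3103, 955 and 563 bp in Azin2-/-, with every wild-type library listed at 0 (limma adjusted p = 0.743). Adora2a, a Gs-coupled adenosine receptor, had 3643, 2888 and 962 bp in Azin2-/- against 0, 521 and 1619 bp in wild-type, with overlap (limma adjusted p = 0.743). The others without overlap and higher in Azin2-/- were Gipr, with 703, 458 and 2500 bp in Azin2-/- and all wild-type libraries listed at 0, Adora2b and Pde8b. Adora2b had a log2 difference of 1.12 (limma adjusted p = 0.771) and Pde8b of 0.49 (limma adjusted p = 0.8).

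In the other direction the 4 of smallest p were Creb3, Akap10, Prkar1b and Pde1c. Creb3, a membrane-bound factor related to CREB, had 1030, 718 and 668 bp in Azin2-/- replicates 1, 2 and 8, against 2147, 1386 and 1487 bp in wild-type replicates 1, 2 and 2b, a log2 difference of -0.85 (limma unadjusted p = 0.0628, adjusted p = 0.773). Akap10, an anchor of protein kinase A, had 826, 1476 and 985 bp in Azin2-/- against 2297, 1712 and 1943 bp in wild-type, a log2 difference of -0.76 (limma adjusted p = 0.778). Both were without overlap after scaling, as were Pde1c, Adra1b and Dusp1, and Prkar1b overlapped. None of these loci passed the test.

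**Figure D5:**
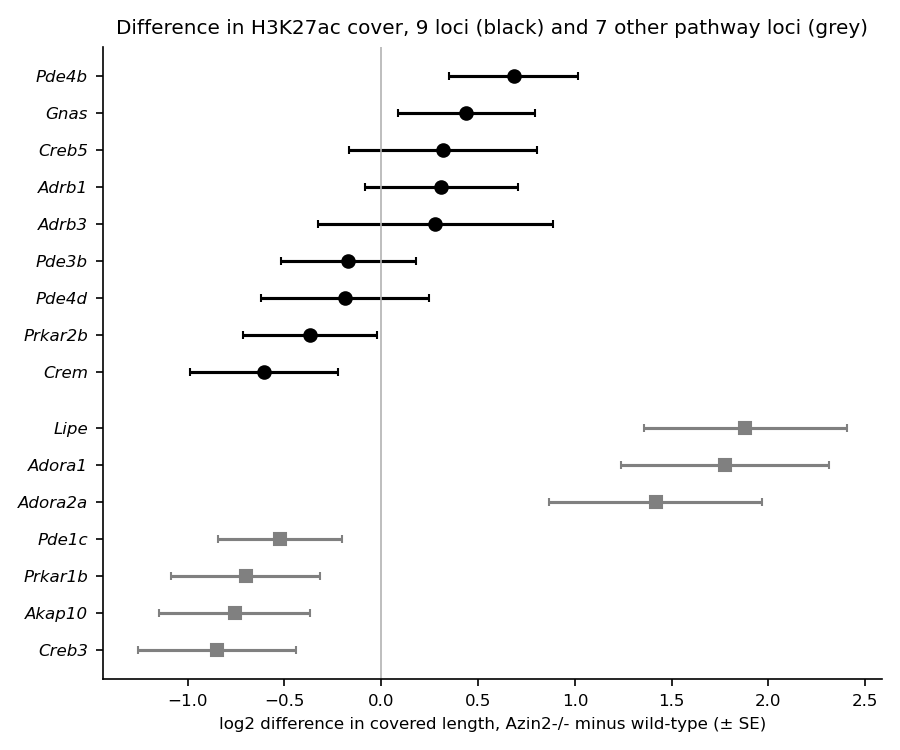
Log2 difference in covered length, Azin2-/- minus wild-type, with its SE from limma, on the log2(bp + 500) scale, for the 9 loci in black and for 7 of the 8 other pathway loci of smallest p in grey. Fosb, listed at 0 in wild-type, is left out. The 9 loci run from 0.68 at Pde4b to -0.61 at Crem, and no locus in the plot passed an adjusted p of 0.05.

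For each member the gene whose cover followed it most closely over the 6 libraries, by Pearson r of log2 cover, was Nog for Adrb1, Herc4 for Adrb3, Tjp3 for Gnas, Nt5c2 for Pde3b, Grm4 for Pde4b, Ube2e2 for Pde4d, Srsf11 for Crem, Med29 for Creb5 and Exph5 for Prkar2b. The values of r lay between 0.987 and 0.998. With 6 points that share library depth, between 11 and 65 genes had an r above 0.95 with each member, so the names are a description only.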

How the data were processed

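The deposited files are peak lists, 1 per H3K27ac library, with coordinates of GRCm38 (mm10), as the submitters' processing notes name it. The labels name no aligner, peak caller or control. For each peak the authors deposited a score, a fold ratio of summit over background, a -log10 p-value and a -log10 q-value. These values are the authors' and were used to rank and describe peaks within a list. The inputs were not analysed here.

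Fold and p together imply a whole pileup and a background, taking a pseudocount of 1 and a tolerance of 0.001 on the -log10 scale; at least 99.9997% of peaks gave one. Peaks on chromosomes 1 to 19 and X were kept, and equal coordinates were counted once. Covered length was scaled to equal totals for loci, not for regions. It was tested on log2(bp + 500) for loci and log2(bp + 200) for regions with a mean of at least 500 or 200 bp, using limma 3.58.1 in R 4.3.3 with a mean trend. The test was tried on simulated data. Transcription starts and promoters came from RefSeq tables of GRCm38.p6.

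The members and lists were chosen with earlier results of these data known. The named genes were the 9 members, the 4 other pathway genes of smallest p in each direction and those without overlap. Regions were named when held by all 6 libraries or by all of 1 genotype and none of the other, a choice made after their values were seen, as were the others given. Markers of 6 cell or tissue types were summed; a further marker list and 1 pathway gene are not reported here. Alternatives were list lengths, windows, pseudocounts, minimums, scaling, fixed windows, a block for the replicate number, a mean of wild-type replicates 2 and 2b, and leaving out each library.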

Additional observations from a re-analysis of the deposited data

How the results depend on the processing

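No member passed an adjusted p of 0.05 under any alternative run for it, and the lowest adjusted p was 0.382, at Pde3b. Crem kept a negative log2 difference under all of them. The numbers of loci called over the whole table were 0 in each direction except 22 higher and 4 lower at a q of 0.01 or less and 43 and 16 with fixed windows (250 bp to either side of each summit). For regions they were 10 and 11 with the 60000 strongest peaks and 12 and 18 with no minimum, and 0 to 9 and 0 to 6 with 1 library left out. The highest were without wild-type replicate 1, and none of these calls was at the upstream start of Gnas or Creb5, whose adjusted p ran from 0.104 to 0.706 and from 0.111 to 0.706.

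Adrb3, Pde4b and Creb5 fell under the minimum cover in some alternatives and then have no value. Signs turned in several alternatives, and some of the turned values were as large as the main ones or larger. The cause was not tested. With the 15000 strongest peaks the log2 difference was -0.35 at Adrb1, -0.017 at Adrb3, 0.28 at Pde4d and 0.27 at Prkar2b, and for the shared regions -0.44 at Adrb1 and 0.67 at Prkar2b. With the 5000 strongest, a length added after the data were seen, it was -0.22 at Adrb1, 0.70 at Pde4d and 0.46 at Prkar2b. With the 60000 strongest it was -0.29 at Adrb3 and 0.35 at Pde4d. At a q of 0.01 or less it was -0.11 at Adrb1, 0.27 at Pde4d and 0.19 at Prkar2b, and 0.67 for the Prkar2b region. In all deposited peaks it was -0.27 at Adrb3, -0.040 at Gnas, -0.089 at Pde4b, 0.021 at Pde4d and -0.037 at Creb5. It was -0.14 at Adrb3 with 20 kb on each side, and 0.39 at Pde3b and -0.25 at Creb5 with fixed windows. With 1 library left out the ranges were 0.049 to 0.59 at Adrb1, -0.23 to 0.57 at Adrb3, -0.29 to 0.025 at Pde3b, -0.49 to 0.024 at Pde4d and -0.21 to 0.76 at Creb5, and for regions -0.14 to 0.16 at Gnas and -0.36 to 0.13 at the narrow region of Pde4d. Members with a gene end held by all 6 libraries numbered 1, 6 and 1 with 15000, all and q-filtered peaks, and those held by Azin2-/- alone 1, 0, 0 and 1 with 15000, 60000, all and q-filtered peaks. With 1 library left out, an alternative added after the data were seen, they were 3 to 4 and 2 to 3.

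With the replicate block the log2 difference was 0.043 at Pde3b and 0.052 at Pde4d, 0 loci were called, and no other sign turned. Azin2-/- replicate 8 is alone in its block and so adds nothing to the genotype difference there. Wild-type replicates 2 and 2b share the block of Azin2-/- replicate 2. The block is therefore close to leaving out Azin2-/- replicate 8 and is no separate check on all 6 libraries. Same-numbered libraries did not deviate together throughout, with correlations of -0.040 for replicate 1 and 0.12 for replicate 2 over 11667 loci, so the numbers were not taken to pair the libraries. Shallow lists limit all of this: the weakest of the 30000 peaks had 2 fragments in wild-type replicate 1 and 3 to 4 in the other libraries.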
